A study of Mus musculus with 4 samples.

Results

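The genes of the helix-loop-helix inhibitors Id1, Id2 and Id3 and of the transcriptional repressor Hes1 were followed in microglia, the resident macrophages of the brain, after whole-brain irradiation of young mice. These 4 genes, of 27998 gene identifiers in the count matrices, were picked by name because their levels had been seen to differ between libraries of this series, so their levels and folds are a description and no test of them was made. The 4 libraries were made in droplets on the 10x Genomics Chromium and sequenced cell by cell, from C57BL/6 mice labelled P21, which is postnatal day 21. The irradiated groups received a single dose of 8 Gy and were sampled 6 h or 1 week later, and the sham groups were controls of the same strain and labelled age, given no dose and sampled at the same 2 times. Each group was 1 library from a pool of 4 mice, without a label for the mouse of a cell. The labels name the brain as source, the design text speaks of hippocampal microglia, and the sex is not given in the sources used here.

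Id proteins carry a helix-loop-helix domain without the basic region that contacts DNA. They pair with E proteins, the products of Tcf3, Tcf4 and Tcf12, and keep them and their partners off DNA, and their genes are known targets of bone morphogenetic protein (BMP) signalling through SMAD proteins. Hes1 is a basic helix-loop-helix repressor that recruits Groucho corepressors of the Tle family, and its gene is a textbook target of the Notch receptors.

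The kept cells numbered 1986 in the irradiated library and 2652 in the sham library at 6 h, and 2149 in the irradiated library and 1582 in the sham library at 1 week. Transcripts were counted by UMIs, short barcodes that let copies of the same molecule be counted as 1, and the libraries held 5675117 to 9736149 UMIs in kept cells, with medians of 3437 to 3594 UMIs per cell. All 9 microglia markers were detected in every library and summed to 39875 CPM (UMIs scaled to 1000000 per library) in the irradiated library at 6 h, against 49926 CPM in the sham library at 6 h, 49653 CPM in the irradiated library at 1 week and 47787 CPM in the sham library at 1 week. The 6 neutrophil markers were all at 0 in 3 libraries and had 1 UMI in the irradiated library at 1 week. Any pair of libraries shared 4 to 12 cell barcodes. With 1 library a group there is no replicate, so intervals are exact 95% intervals for counting error only (Poisson for levels, binomial for shares and folds), and a gene is called higher or lower from a 1.5-fold difference with at least 50 UMIs over both libraries. The counts of Id2 and Hes1 varied more between cells than a Poisson count does, so these intervals are too narrow even for counting. A lower level per library cannot tell fewer expressing cells from less RNA in each, except where counts per cell are given.

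Id2 is the member on which the results turn. Its gene lies on the minus strand at chr12:25093799-25097140 (mm10, GENCODE vM21). The 250 bases before its RefSeq transcription start (GRCm38.p6, minus strand, chr12:25096093-25096342) are shown because they hold the promoter of that transcript; they lie inside the longer gene span of GENCODE, and nothing in these libraries reads them. The capitals mark the only match among the motifs searched on both strands.

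Id2 promoter: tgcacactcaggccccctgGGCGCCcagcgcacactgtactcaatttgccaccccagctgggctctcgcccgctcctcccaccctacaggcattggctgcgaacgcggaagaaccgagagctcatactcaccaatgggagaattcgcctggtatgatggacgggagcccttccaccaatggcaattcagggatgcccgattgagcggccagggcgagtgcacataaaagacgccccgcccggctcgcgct

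This window was 62.8% G and C, against a median of 52.4% over 32851 RefSeq promoter windows of the same length. It held 1 copy of GGCGCC, a sequence that SMAD proteins of the BMP branch can bind, starting at position -231 from the transcription start, and 9.59% of all windows held that sequence. No match was found for the other SMAD motif GTCTAGAC (0.167% of windows) or the RBPJ motif GTGGGAA of Notch target genes (5.42%). The CREB and ATF motif TGACGTCA (1.55%) and its first bases TGACG (17.8%) were also without a match. So were the E box variant CACGTG (6.02%) and the N box CACNAG (36.7%), to which Hes proteins bind. Other E boxes of the form CANNTG were not searched, and the window holds CAGCTG, which is of that form, in lower case. A match or its absence describes these letters and no binding. Id3 was the other member with a window in the RefSeq table, so 2 of the 4 members matched.

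Id2 was the member that differed most at 6 h. It had 4026 UMIs or 547 CPM (530 to 564) in the irradiated library at 6 h, against 879 UMIs or 90.3 CPM (84.4 to 96.5) in the sham library at 6 h. At 1 week it had 1242 UMIs or 161 CPM (152 to 170) in the irradiated library and 1047 UMIs or 184 CPM (173 to 196) in the sham library. The irradiated library at 6 h stood above the other 3, and none of the 4 counting intervals overlapped. The log2 fold of irradiated over sham was 2.60 at 6 h (2.49 to 2.70), a 6.05-fold difference, and -0.20 at 1 week (-0.32 to -0.08). At 6 h, 99.2% of 9934 genes tested had a lower log2 fold than Id2, and at 1 week 18.8% of 9518 genes did.

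The 2 sham libraries also differed in Id2. The log2 fold of sham at 1 week over sham at 6 h was 1.03 (0.90 to 1.16), higher than that of 99.6% of the 9728 genes tested, and the time of sampling and the library cannot be told apart. Measured against the sham library of the other time, Id2 was 2.96-fold higher in the irradiated library at 6 h, a log2 fold of 1.57. In the irradiated library at 1 week it was 1.78-fold higher than in the sham library at 6 h, a log2 fold of 0.83. So irradiated cells at 6 h held more Id2 than either sham, while irradiated cells at 1 week lay between the shams. Between the irradiated libraries, the log2 fold of 1 week over 6 h was -1.76 (-1.86 to -1.67).

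**Figure D1:**
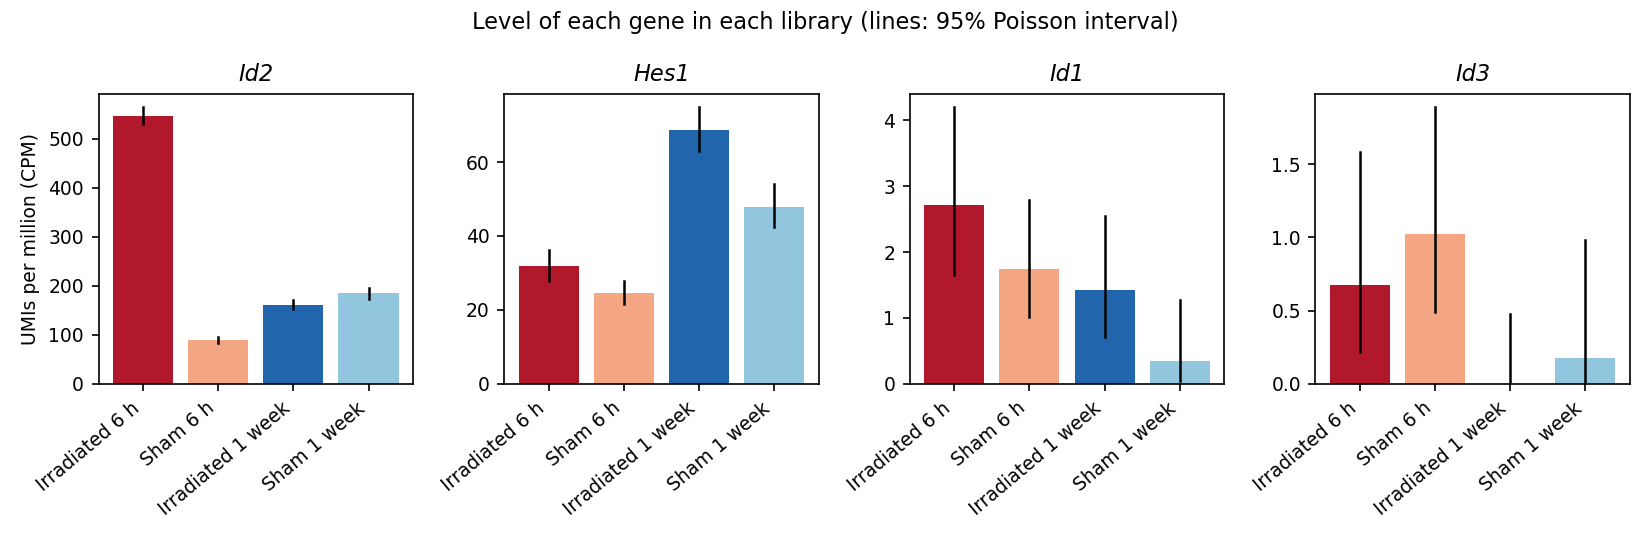
Level of each member in each library in CPM (y axis, a separate linear scale for each gene), with bars for libraries and black lines for the exact 95% Poisson interval. Id2 stands at 547 CPM in irradiated cells at 6 h and at most 184 CPM in the other 3 libraries, Hes1 is highest at 68.7 CPM in irradiated cells at 1 week, and Id1 and Id3 stay below 3 CPM.

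Hes1 differed more between the times of sampling than between irradiated and sham cells. The gene (chr16:30064384-30067796, plus strand) had 235 UMIs or 31.9 CPM (28.0 to 36.3) in the irradiated library and 239 UMIs or 24.5 CPM (21.5 to 27.9) in the sham library at 6 h. At 1 week it had 530 UMIs or 68.7 CPM (63.0 to 74.8) in the irradiated library and 272 UMIs or 47.9 CPM (42.4 to 54.0) in the sham library. Both libraries at 1 week lay above both at 6 h, and within each time the irradiated library was the higher. The log2 fold of irradiated over sham was 0.38 (0.11 to 0.64) at 6 h and 0.52 (0.31 to 0.74) at 1 week, short of the 1.5-fold mark at both times. Sham at 1 week over sham at 6 h gave a larger log2 fold, 0.97 (0.71 to 1.22), higher than that of 99.4% of genes tested. The 2 intervals nearest each other in level, 28.0 to 36.3 CPM in irradiated and 21.5 to 27.9 CPM in sham cells at 6 h, did not overlap but lay side by side. Against the sham of the other time the direction at 6 h turned, with a log2 fold of -0.59 (-0.85 to -0.33) for irradiated cells at 6 h over sham at 1 week, and that of irradiated cells at 1 week over sham at 6 h was 1.48 (1.26 to 1.71). Irradiated cells at 1 week over irradiated cells at 6 h gave 1.11 (0.88 to 1.33).

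**Figure D2:**
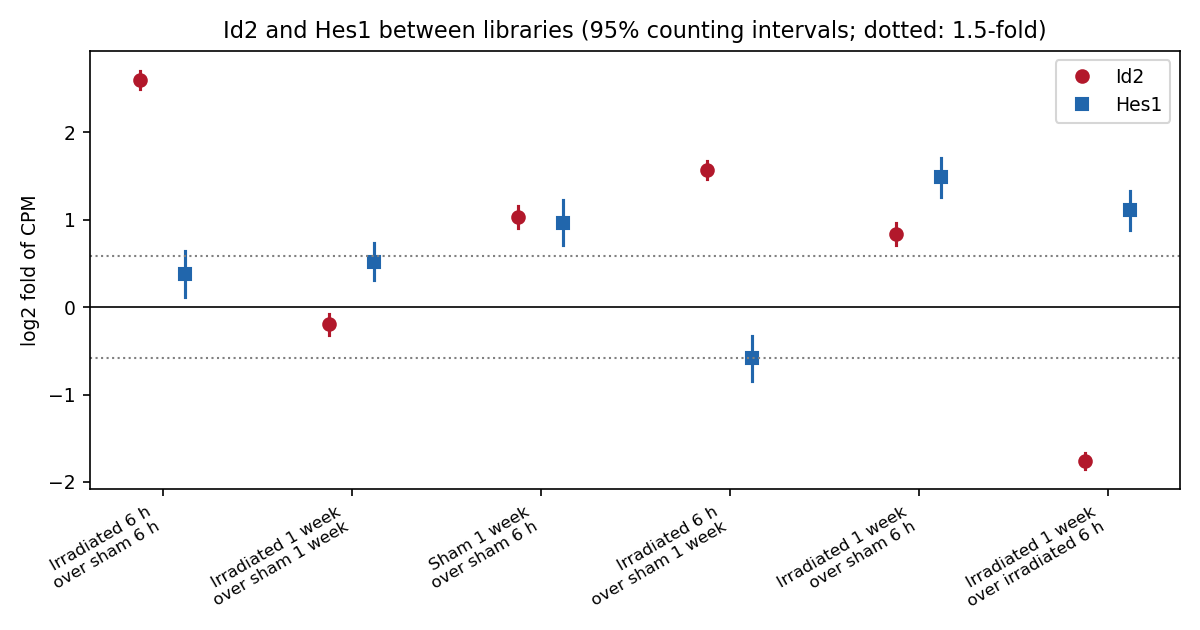
Log2 fold of CPM (y axis) of Id2 (circles) and Hes1 (squares) for 6 pairs of libraries (x axis), with exact 95% counting intervals and dotted lines at 1.5-fold; pairs that share a library are not independent. Id2 reaches 2.60 for irradiated over sham at 6 h and -0.20 at 1 week, while the largest fold of Hes1 is 1.48, for irradiated cells at 1 week over sham at 6 h.

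Id1 and Id3 were close to undetected. Id1 (chr2:152736251-152737410, plus strand), an Id protein best known from endothelial and stem cells, had 20 UMIs in the irradiated library and 17 in the sham library at 6 h, and 11 in the irradiated library and 2 in the sham library at 1 week. Its log2 fold of irradiated over sham was 0.64 (-0.37 to 1.66) at 6 h and 2.02 (-0.18 to 5.23) at 1 week, so both intervals included no difference. Id3 (chr4:136143497-136145755, plus strand) had 5 UMIs in the irradiated library and 10 in the sham library at 6 h, and 0 in the irradiated library and 1 in the sham library at 1 week. The count of 0 in 2149 cells allows a level of up to 0.389 CPM by a floor of 3 counts, and of up to 0.478 CPM by the upper end of the exact interval. For Id1 the answer depended on the cells read. In cells thinned to 2000 UMIs its log2 fold at 6 h was 1.66 (0.19 to 3.32), while the intervals of the other settings that gave one included no difference. Between the shams, 2 Id1 UMIs at 1 week against 17 at 6 h gave a log2 fold of -2.31 (-5.47 to -0.23), and -1.83 (-5.03 to 0.34) without cells marked as another type; the interval also included no difference with no cell filter, a stricter one, without the cells of most UMIs and after thinning. For Id3 a difference between irradiated and sham cells of the same time was not detectable at this depth. Both genes fell short of the 50 UMIs set for a call, so 2 of the 4 members were tested.

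Of the 2 members tested, Id2 was called higher at 6 h, where 8.97% of all genes tested were higher, and 0 were called lower, against 9.31% of all genes. At 1 week 0 of the 2 were called in either direction, where 4.01% of genes were higher and 3.12% lower. Both were called higher in the sham library at 1 week over that at 6 h, where 2.89% of genes were higher and 4.89% lower. The choice of members used these contrasts, so nothing is read from these counts.

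The few cells with Id1 or Id3 were counted one by one. In the irradiated library at 6 h, 20 cells had an Id1 UMI; 18 of them also had an Id2 UMI and 15 a Ccl4 UMI, against 44.4% and 52.5% of the other cells. Their median depth was 3998.5 UMIs, against 3509.5 UMIs in the others. In the sham library at 6 h, 3 of 13 cells with Id1 had Id2, against 17.1% of the other cells. Cells marked as another type carried 7 of the 10 Id3 UMIs of the sham library and 3 of the 5 of the irradiated library at 6 h. A cell was so marked when it held at least 3 UMIs from at least 2 marker genes of one other type. For Id1 these cells held 2 of 20 UMIs in the irradiated library and 5 of 17 in the sham library at 6 h.

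Id2 was found in more cells and at higher counts per cell after irradiation at 6 h. An Id2 UMI was present in 44.9% (42.7 to 47.1) of irradiated and 17.1% (15.7 to 18.6) of sham cells at 6 h, and in 24.7% (22.9 to 26.5) of irradiated and 23.8% of sham cells at 1 week. After each cell was thinned to 2000 UMIs the shares were 37.4% in irradiated and 11.5% in sham cells at 6 h, and 16.8% in both libraries at 1 week. Cells with 3 or more Id2 UMIs made up 14.0% of irradiated and 1.29% of sham cells at 6 h, and 3.14% of irradiated and 4.09% of sham cells at 1 week. They held 69.2% of all Id2 UMIs in irradiated and 31.6% in sham cells at 6 h, and 44.6% in irradiated and 54.7% in sham cells at 1 week. The variance of Id2 per cell was 3.65 times its mean in irradiated and 2.32 times in sham cells at 6 h, and 2.76 times in irradiated and 3.26 times in sham cells at 1 week.

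**Figure D3:**
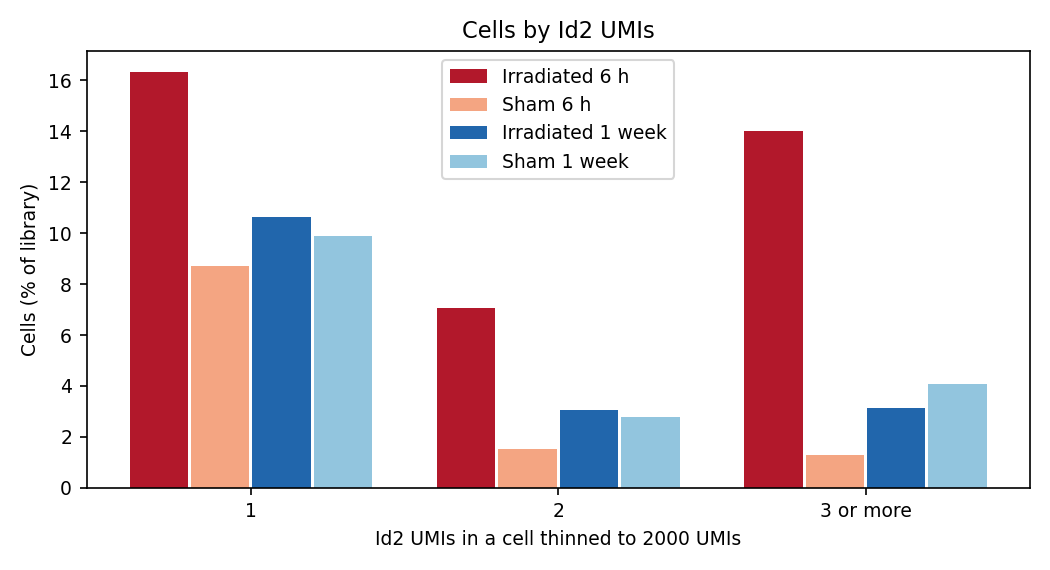
Share of cells (y axis, percent of the thinned cells of a library) with 1, 2 or 3 and more Id2 UMIs (x axis); bars are the 4 libraries, and cells with 0 are left out. The largest gap lies at 3 or more UMIs, with 14.0% of irradiated and 1.29% of sham cells at 6 h.

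Hes1 was sparse in all 4 libraries. A Hes1 UMI was found in 5.70% (4.70 to 6.84) of irradiated and 4.30% (3.55 to 5.16) of sham cells at 6 h, and in 9.80% (8.55 to 11.2) of irradiated and 7.75% (6.40 to 9.28) of sham cells at 1 week, all thinned. Unthinned, the shares were 8.66% of irradiated and 6.37% of sham cells at 6 h, and 14.6% of irradiated and 11.3% of sham cells at 1 week. The order of the libraries was that of the CPM. The intervals of irradiated and sham cells overlapped at both times after thinning and at neither time without it. No cell type here is known to lack these genes, so the part of free RNA in such shares was not measured. P2ry12, a receptor gene of microglia, was found in 67.9% of the 56 cells marked as another type in the irradiated library at 6 h, with a median depth of 4855.5 UMIs, against 96.0% of the other cells at a median depth of 3503.5 UMIs.

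Most Id2 UMIs of irradiated cells at 6 h lay in cells that also had the chemokine gene Ccl4, as cells at 0 Ccl4 UMIs held 22.6% of them, and Id2 was also higher in cells with Gdf15, which encodes a stress-induced cytokine of the TGF-beta superfamily. Both partners belong to the way the member was chosen, so their relation to Id2 at 6 h is given without a test. Ccl4 was at 2477 CPM in irradiated and 363 CPM in sham cells at 6 h, and at 610 CPM in irradiated and 869 CPM in sham cells at 1 week. Gdf15 was at 371 CPM in irradiated and 1.95 CPM in sham cells at 6 h, and at 10.8 CPM in irradiated and 5.11 CPM in sham cells at 1 week. Across 1896 irradiated cells at 6 h, thinned to the same depth, Pearson's r of log2(UMIs + 1) was 0.53 for Id2 and Ccl4 and 0.45 for Id2 and Gdf15, with Spearman's rho of 0.43 and 0.39. With Ccl4 it was 0.18 in sham cells at 6 h, 0.09 in irradiated cells at 1 week and 0.29 in sham cells at 1 week. Cells of 1 library share its depth and RNA background and are not replicates.

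The 4 classes of cells by Ccl4 count that follow were set after the values had been seen. In irradiated cells at 6 h the mean Id2 count was 0.409 (0.371 to 0.450) at 0 Ccl4 UMIs, 0.851 (0.760 to 0.951) at 1 to 2, 1.09 (0.957 to 1.24) at 3 to 7 and 3.33 (3.11 to 3.55) at 8 or more. In sham cells at 6 h it was 0.143, 0.176, 0.352 and 1.26 in the same classes. Id2 thus increased with the Ccl4 class in both libraries, and was higher in irradiated cells of every class, with log2 folds of 1.52, 2.27, 1.63 and 1.41 in that order, each below the log2 fold of 2.52 over all thinned cells. The class of 8 or more made up 14.2% of irradiated cells, which held 47.7% of the Id2 UMIs of the library, and 1.68% of sham cells at 6 h, which held 12.3%. Median depth before thinning was 4187 UMIs in that class of irradiated cells and 3436 UMIs in irradiated cells at 0 Ccl4 UMIs. The part of that depth in the result was not tested beyond the thinning.

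Gdf15 gave a like order among irradiated cells at 6 h. The mean Id2 count was 0.645 (0.606 to 0.686) at 0 Gdf15 UMIs, 1.60 (1.42 to 1.81) at 1, 2.65 (2.22 to 3.13) at 2 and 3.97 (3.62 to 4.35) at 3 or more. With both genes, the 250 cells that had Ccl4 and Gdf15 averaged 3.17 Id2 UMIs (2.96 to 3.40), the 611 cells with Ccl4 alone 1.08 (0.998 to 1.16), the 85 cells with Gdf15 alone 0.882 and the 950 cells with neither 0.366 (0.329 to 0.407). The cells with neither were still above their counterparts: 2181 sham cells at 6 h with neither gene averaged 0.143 (0.127 to 0.159), a log2 fold of 1.36 (1.14 to 1.59). At 1 week that log2 fold was 0.22 (-0.03 to 0.48).

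At 1 week the classes differed in direction. In cells at 0 Ccl4 UMIs the mean Id2 count was 0.246 (0.221 to 0.273) in irradiated and 0.210 (0.183 to 0.241) in sham cells, a log2 fold of 0.23 (-0.02 to 0.48). In cells with 3 to 7 Ccl4 UMIs it was 0.430 (0.344 to 0.531) in irradiated and 0.750 (0.603 to 0.922) in sham cells, a log2 fold of -0.80 (-1.25 to -0.36). In cells with 8 or more it was 0.771 (0.580 to 1.01) in 70 irradiated and 1.65 (1.33 to 2.03) in 55 sham cells, a log2 fold of -1.10 (-1.61 to -0.60). In cells with 1 to 2 it was 0.381 in 302 irradiated and 0.384 in 229 sham cells, a log2 fold of -0.01 (-0.43 to 0.40). Split by Ccl4, the lower Id2 level of irradiated cells at 1 week thus lay in cells with 3 or more Ccl4 UMIs. The difference between the classes was not tested. By P2ry12 count the log2 fold of Id2 at 1 week was -1.29 (-1.99 to -0.65) at 0 to 3 UMIs and -0.25 (-0.66 to 0.15) at 4 to 7. It was 0.45 (0.14 to 0.76) at 8 to 12 and 0.33 (-0.01 to 0.67) at 13 or more. In the classes by immediate early count given below it was 0.01, -0.02, -0.22 and 0.03, and each interval included no difference.

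**Figure D4:**
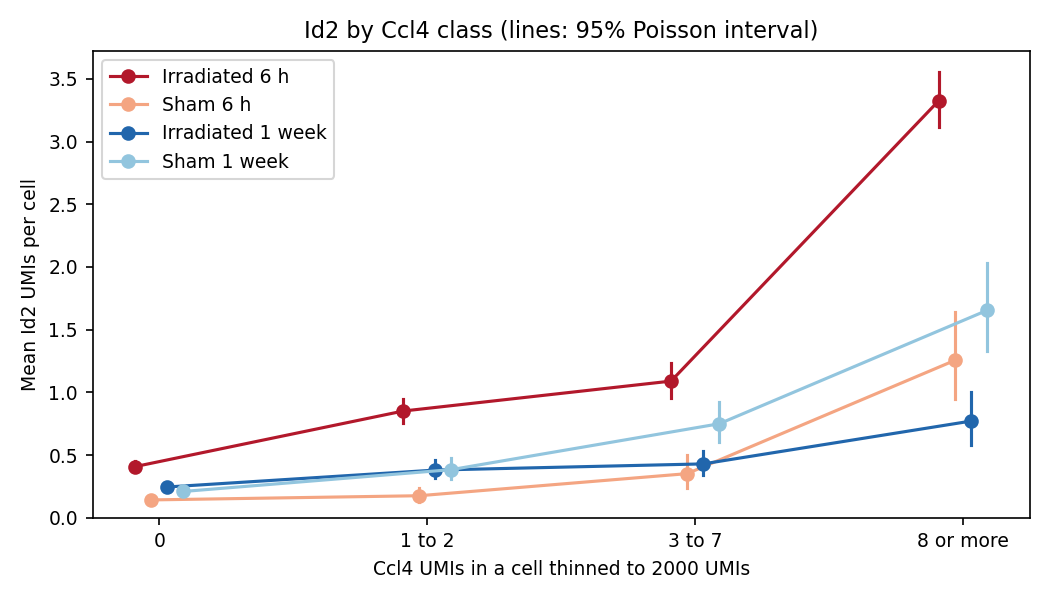
Mean Id2 UMIs per thinned cell (y axis) in 4 classes of cells by their Ccl4 UMIs (x axis), 1 line for each library, with exact 95% Poisson intervals; points are shifted sideways for legibility. Irradiated cells at 6 h lie above the other libraries in every class and reach 3.33 at 8 or more Ccl4 UMIs, and irradiated cells at 1 week have the lowest mean of that class, 0.771.

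Across cells, the genes most like Id2 included chemokine and stress genes. Among 4289 genes with a UMI in at least 5% of the thinned cells of every library, the 10 with the highest mean Pearson's r to Id2 over the 4 libraries were Ccl4 (0.27), Ccl3 (0.24), Atf3 (0.22), Ftl1 (0.22), Cd83 (0.20), Mt1 (0.18), Ctsb (0.16), Cd63 (0.15), Egr1 (0.15) and Eif4a1 (0.15), against a 95th percentile of 0.04 over all genes compared. These include 2 chemokine genes, a ferritin subunit, a metallothionein and the stress and immediate early factors Atf3 and Egr1. The relation of Id2 to Ccl4 and Gdf15 in irradiated cells at 6 h belongs to the way the member was chosen. That library enters each mean r, so nothing is read from the places of these genes. All 10 had their highest r in irradiated cells at 6 h, from 0.25 for Egr1 to 0.53 for Ccl4. In irradiated cells at 1 week r ran from 0.02 for Eif4a1 to 0.13 for Egr1. The lowest mean r over the 4 libraries were those of P2ry12 (-0.21), Selplg (-0.17) and Cst3 (-0.17), all abundant in microglia. Cdkn1a, a cell cycle inhibitor induced by DNA damage, was at 2945 CPM in irradiated and 52.2 CPM in sham cells at 6 h, and took place 145 with a mean r of 0.05. Within irradiated cells at 6 h its r with Id2 was -0.08, and mean Id2 was 1.65 UMIs in the 80 cells at 0 Cdkn1a UMIs, against 0.899 in the 867 cells with 6 or more. Hes1 and Id2 had r values between 0.01 and 0.04 in the 4 libraries, which in counts this sparse is no finding.

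Cells rich in Id2 differed from cells at 0 Id2 UMIs in microglial receptor genes, in irradiated and in sham cells. At 6 h the 266 irradiated cells with 3 or more Id2 UMIs averaged 2.89 P2ry12 UMIs, against 7.34 in the 1186 irradiated cells at 0 Id2 UMIs. For Tmem119, another microglial surface gene, the means were 2.84 and 6.11, and for Csf1r, the receptor on which microglia depend, 5.17 and 6.87. Ccl3, a chemokine, averaged 9.86 and 1.12, Atf3 1.86 and 0.193, and Mt1 2.74 and 0.820 in the same order. Median depth before thinning was 4044 UMIs and 3438 UMIs in these cells. For these genes the directions were the same in the other libraries, though Tmem119 differed little in irradiated cells at 1 week, at 5.97 and 6.20. The order of depth turned there, with medians of 3330.5 UMIs in Id2-rich cells and 3474 UMIs in cells at 0 Id2 UMIs. In sham cells at 6 h P2ry12 averaged 9.73 and 13.8 and Ccl3 5.67 and 0.461. In sham cells at 1 week P2ry12 averaged 7.19 and 11.5 and Ccl3 6.72 and 0.989. In irradiated cells at 1 week the means were 11.2 and 14.3 for P2ry12 and 2.05 and 0.79 for Ccl3. P2ry12 was lower in the irradiated library as a whole, at 2886 CPM against 6569 CPM in sham cells at 6 h. In classes of cells by P2ry12 count, Id2 was higher in irradiated than in sham cells at 6 h with log2 folds of 1.78 at 0 to 3 P2ry12 UMIs, 1.64 at 4 to 7, 1.16 at 8 to 12 and 0.97 at 13 or more.

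Other cell types and the handling of cells were read beside these results. Cells marked as another type made up 2.82% of irradiated and 1.66% of sham cells at 6 h, and 0.512% of irradiated and 0.316% of sham cells at 1 week. Without them Id2 was at 539 CPM in irradiated and 89.2 CPM in sham cells at 6 h, and Hes1 at 31.7 CPM in irradiated and 24.3 CPM in sham cells at 6 h. The 6 monocyte markers summed to 52.9 CPM (47.8 to 58.5) in irradiated and 39.2 CPM (35.4 to 43.4) in sham cells at 6 h, and to at most 15.8 CPM in either library at 1 week, with the defining marker Ly6c2 at 0 in all 4 libraries. Cells marked as monocyte were 26 of 1986 irradiated and 15 of 2652 sham cells at 6 h. Id2 was at 811 CPM (670 to 973) in the irradiated and 101 CPM (37.0 to 220) in the sham ones. That level was not particular to the monocyte mark. Over all cells marked as another type at 6 h, Id2 was at 753 CPM (652 to 865) in 56 irradiated and 143 CPM (95.3 to 207) in 44 sham cells. The 7 astrocyte markers summed to 260 CPM in irradiated and 149 CPM in sham cells at 6 h, and to 181 CPM in irradiated and 143 CPM in sham cells at 1 week.

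Immediate early genes are known to be induced while cells are taken from tissue. Of 21 listed genes, 20 were tested. In the sham library at 1 week over that at 6 h, 13 were called higher and 0 lower, against 2.89% and 4.89% of all genes. The median log2 fold was 0.67, against -0.05 over all genes. The largest were Ier3 (1.42), Klf4 (1.17), Atf3 (1.14), Nr4a1 (1.01), Fosb (0.98) and Egr2 (0.96). They moved with Id2 and Hes1 in that pair, and their part in those 2 differences was not tested. At 6 h, 1 of 20 was called higher in irradiated cells, Atf3 at 1.60, against 8.97% of all genes. At that time 5 were lower, against 9.31% of all genes, among them Hspa1b at -1.26, Fosb at -1.25 and Klf2 at -0.87. At 1 week 0 were higher and 7 lower, against 4.01% and 3.12% of all genes. Those lower were led by Klf4 at -1.36, Klf2 at -1.25 and Atf3 at -1.16. In 4 classes of cells by the summed count of the list, set after the values had been seen, Id2 was higher in irradiated cells at 6 h by 5.35-fold, 5.67-fold, 6.46-fold and 6.09-fold from the lowest class to the highest. Between the shams the log2 fold of Id2 in these classes was 0.69 (-0.08 to 1.38), 0.78 (0.33 to 1.21), 0.58 (0.22 to 0.94) and 0.33 (0.00 to 0.67), each below the 0.99 over all thinned cells. In the same classes the log2 fold of Hes1 in sham cells at 1 week over sham cells at 6 h was 0.10 (-1.30 to 1.26), 0.85 (0.13 to 1.55), 0.83 (0.20 to 1.48) and 2.11 (1.03 to 3.39).

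The E proteins, which Id proteins bind, gave 1 call. Among all genes tested, 8.97% were higher and 9.31% lower at 6 h. At 1 week 4.01% were higher and 3.12% lower, and between the shams 2.89% were higher and 4.89% lower. Of Tcf3, Tcf4 and Tcf12, 1 of 3 was called at 6 h: Tcf4 had 1043 UMIs in irradiated and 2139 in sham cells, a log2 fold of -0.63 (-0.74 to -0.53). With median of ratios scaling 0 of the 3 were called at 6 h. None was called at 1 week or between the shams, where the largest log2 folds were those of Tcf12, 0.08 at 1 week and -0.23 between the shams. Tcf3 had a log2 fold of 0.04 at 6 h and Tcf12 of -0.13. Of the other members of the Id and Hes families and their corepressors, 6 of 18 listed had enough UMIs. Bhlhe41, a related repressor, was higher at 6 h, with 1674 UMIs in irradiated and 1302 in sham cells and a log2 fold of 0.77 (0.66 to 0.87). The corepressor genes Tle1 (-1.11) and Tle3 (-0.91) were lower at 6 h, and 0 of the 6 were called at 1 week or between the shams. Id4 had 2 UMIs in all 4 libraries together, and Hes5 and Hey1 had 1 each.

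Upstream of the Id genes, the BMP list gave 2 higher and 1 lower of 19 tested at 6 h, where 8.97% of all genes were higher and 9.31% lower, so its share of calls was near that of all genes. Of 38 listed genes, these 19 were tested, with a median log2 fold of -0.02, against -0.06 over all genes. Higher were Bmp1 at 1.34 (0.85 to 1.83), which encodes a metalloprotease rather than a ligand of the family, and the type I receptor gene Acvrl1 at 0.86 (0.62 to 1.10). Bambi, which encodes a decoy receptor that dampens the pathway, was lower, with 11 UMIs in irradiated and 41 in sham cells, a fold of 0.355. At 1 week Bmp1 was higher at 0.81 (-0.01 to 1.69) and Acvr2b, a type II receptor gene, lower at -0.74. These were 1 higher and 1 lower of 18 tested, against 4.01% and 3.12% of all genes. Smad7, an inhibitory SMAD, was higher in the sham library at 1 week over that at 6 h, at 0.78 (0.70 to 0.87). Bmp1 was lower in that pair, at -0.83. These were 1 higher and 1 lower of 19 tested, against 2.89% and 4.89% of all genes. Among the ligand genes, Bmp4, Bmp5, Bmp6, Bmp7, Gdf2, Gdf5 and Gdf6 were at 0 in all 4 libraries, Bmp2 had 3 UMIs in all, Gdf3 had 15 UMIs in irradiated and 4 in sham cells at 6 h and 0 in both libraries at 1 week, and the SMAD gene Smad9 was at 0. Of the 8 tested genes of the TGF-beta and activin list, 0 were called in any of the 3 pairs.

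Around Hes1, the Notch list, which holds Hes1 itself, gave 5 calls at 6 h and 0 at 1 week. Over all genes, 8.97% were higher and 9.31% lower at 6 h, and 4.01% higher and 3.12% lower at 1 week. Of the 34 genes of the list tested at 6 h, 1 was higher, Numbl at 1.22 (0.41 to 2.07). The 4 lower were Nrarp at -0.89, Numb at -0.82, Notch4 at -0.75 and Mfng at -0.60. The list median was -0.14, against -0.06 over all genes, and nothing on the pathway is read from these counts. Nrarp, a feedback inhibitor that Notch induces, was at 8.55 CPM in irradiated and 15.8 CPM in sham cells at 6 h. At 1 week it was at 15.8 CPM in irradiated and 16.9 CPM in sham cells, and a link to Hes1 was not tested. Numb encodes an inhibitor of the receptor, Notch4 a receptor and Mfng a glycosyltransferase that modifies it. At 1 week 0 of 33 were called, and Hes1 itself was at 0.52. In the sham library at 1 week over that at 6 h, 1 of 33 was called higher, against 2.89% of all genes. That 1 was Hes1, whose choice used this contrast, so nothing is read from the call. Ncstn at -1.51 and Adam17 at -0.65, both of the proteolytic machinery that releases the receptor, were lower, against 4.89% of all genes. Ncstn was low in both libraries at 1 week, at 21.1 CPM in irradiated and 21.7 CPM in sham cells, against 58.9 CPM in irradiated and 61.9 CPM in sham cells at 6 h. Of the ligand genes, Jag1, Dll3 and Dll4 had at most 4 UMIs in any library, Jag2 at most 9 and Dll1 at most 18.

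**Figure D5:**
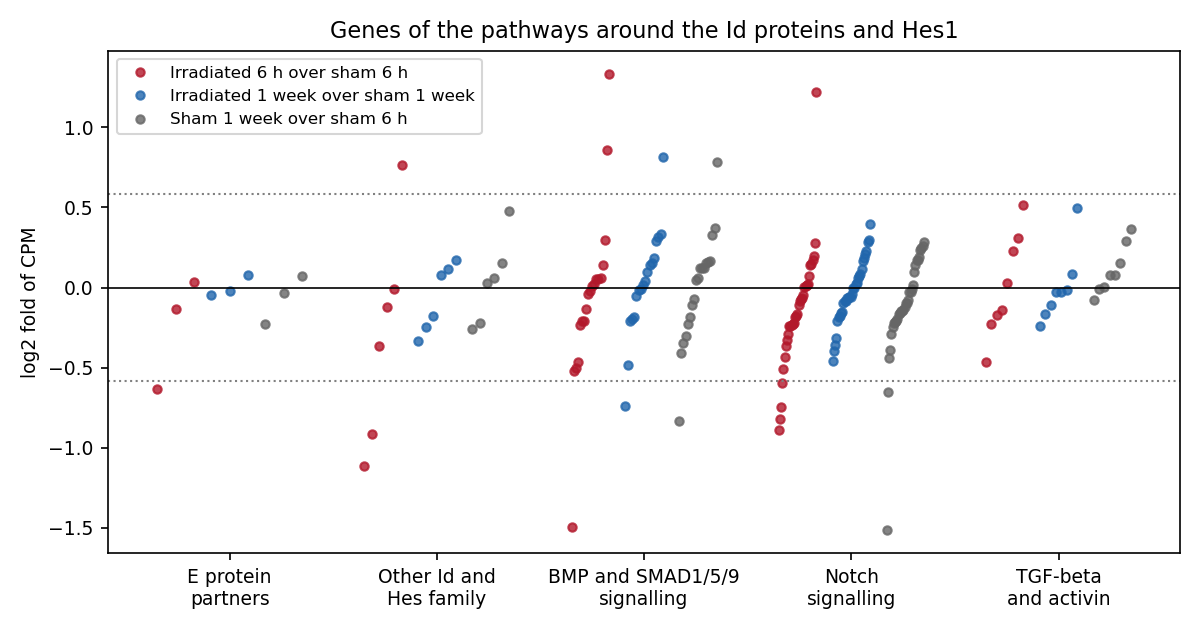
Log2 fold of CPM (y axis) of each tested gene of 5 lists (x axis) for 3 pairs of libraries, with the 4 members left out and dotted lines at 1.5-fold; each point is a gene and the points of a list are in order of size. Most genes lie between the dotted lines, with Bmp1 (1.34) and Numbl (1.22) highest at 6 h and Bambi (a fold of 0.355) lowest at 6 h.

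The genes nearest to Id2 and Hes1 were also read from the pattern over the 4 libraries. Distance was taken between the 4 log2 CPM values, centred on their mean, over 8559 genes with at least 200 UMIs. The nearest to Id2 were Ccl4 (0.25), Arap2 (0.30) and Dapk1 (0.36). Arap2 had 133 UMIs in irradiated and 34 in sham cells at 6 h, and 50 in irradiated and 33 in sham cells at 1 week. The nearest to Hes1 were Gm10138 (0.33), Gm26522 (0.34) and Ier3 (0.34), and the distance of Id2 and Hes1 from each other was 2.16. With 4 libraries, many genes can share an order, and nothing is read from it on shared control.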

How the data were processed

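The UMI counts per gene and barcode are the deposited matrices, made by the authors with Cell Ranger 2.0 on mm10, per the submitters' processing notes; its annotation release and threshold for a barcode were not given in the sources used here, which are labels and headers. Among 8486 barcodes (8095 cells by the series' design text), 8369 passed a filter of 1000 UMIs, 500 genes and a mitochondrial share of no more than 10%, so that each library lost 18 to 41. No clusters were built and no doublet caller was run. CPM are 1000000 times summed UMIs over all UMIs of kept cells. Shares and relations across cells used cells thinned to 2000 UMIs without replacement, which left out 90 irradiated and 93 sham cells at 6 h and 109 irradiated and 189 sham cells at 1 week as too shallow. In the folds of lists, a count of 0 was set to a floor of 3 counts. Of 27998 identifiers, 27645 matched GENCODE vM21, the source of coordinates. Genes named beside the members are those called in a list (up to 6 per list and pair, by size), Ccl4, Gdf15, Cdkn1a and P2ry12, and those nearest by library or across cells. Other genes, among them Tmem119 and Csf1r, were named after their values were seen. Members, lists and classes were chosen with earlier results of these data known. The sequence is from RefSeq. Intervals were tested on simulated Poisson counts, which lack the extra spread between cells seen here, so that check does not cover it. Alternatives were cell filters, scalings, thinning depths, count minimums and a 2-fold call. Python 3.11.15, numpy 2.4.6, scipy 1.17.1 and matplotlib 3.10.9 were used.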

Additional observations from a re-analysis of the deposited data

Results flagged for a closer look

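The difference between irradiated and sham cells had opposite directions at 6 h and at 1 week for Id2, with log2 folds of 2.60 and -0.20, and for the immediate early gene Atf3, with log2 folds of 1.60 and -1.16. With 1 library a group, the difference between the times was not tested for either gene. Both genes were also higher in the sham library at 1 week than in that at 6 h, by log2 folds of 1.03 and 1.14.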

How the results depend on the processing

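All 48 alternative values of the log2 folds of Id2 and Hes1 (8 settings, irradiated over sham at each time and sham over sham) stayed within the counting interval of the reported value. The log2 fold of Id2 ranged from 2.51 to 2.66 at 6 h and from -0.23 to -0.14 at 1 week, and that of Hes1 from 0.34 to 0.44 at 6 h and from 0.35 to 0.52 at 1 week. Thinning to 3000 UMIs raised Pearson's r in irradiated cells at 6 h to 0.56 for Id2 and Ccl4 and 0.50 for Id2 and Gdf15, in 1430 cells. Over all lists but the cycling genes, without the 4 members, a 2-fold call gave 3 higher and 4 lower at 6 h in place of 5 and 13, 0 and 3 at 1 week in place of 1 and 8, and 4 and 1 between the shams in place of 14 and 3. A minimum of 200 UMIs gave 3 higher at 6 h and 0 at 1 week. Shares over all genes were not computed at either of these settings, so nothing is read from these counts. Of 48 alternative shares of cells, 26 lay outside the interval of the thinned share, and depth sets them. No paired analysis was possible because each group is 1 library. Without replicates the spread between mice is unknown, Id1 and Id3 are limited by their counts, and time cannot be told apart from library.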

Other observations

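Cycling genes were read beside the members. At 6 h, 13 of 13 cycling genes tested were lower in irradiated cells, against 9.31% of all genes. At 1 week 17 of 17 were higher, against 4.01% of all genes. The shams differed too, with 13 of 13 lower at 1 week than at 6 h, against 4.89% of all genes, and a median log2 fold of -1.65. Over the sham library at 1 week, the irradiated library at 6 h had 1 higher and 0 lower of 2 tested, against 11.8% and 9.51% of all genes. Few cells carried them: Top2a, a topoisomerase of dividing cells, had 30 UMIs in irradiated and 144 in sham cells at 6 h, and 268 in irradiated and 12 in sham cells at 1 week. In irradiated cells at 1 week, mean Id2 was 0.275 UMIs in 69 cells with 1 UMI of the list and 0.333 UMIs in 30 cells with 2 or more, against 0.302 UMIs in 1941 cells with 0. For Hes1 the means were 0.0870, 0.233 and 0.137 UMIs in the same order, with overlapping intervals. In irradiated cells at 6 h, mean Id2 was 1.44 UMIs (1.17 to 1.76) in 68 cells with 1 UMI of the list. It was 2.60 (1.38 to 4.45) in 5 cells with 2 or more, against 0.968 (0.923 to 1.01) in 1823 cells with 0. In both sham libraries the intervals of mean Id2 in these classes overlapped, and the relation was not tested.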
